A study of Sus scrofa with 2 samples.

Results

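The genes described here encode the enzymes of glycolysis and of glycogen metabolism, with the enzymes that set the level of fructose 2,6-bisphosphate. They were chosen as a list of 32 gene symbols, and 30 of these were among the 31908 genes of both count matrices. The symbols PKM and SLC2A1 were not among the matrix symbols. The gene identifier that a reference name table pairs with PKM (ENSSSCG00000001930) was present without a symbol and is given separately below. The RNA was read in single nuclei from the frozen free wall of the left ventricle of miniature pigs of the Bama breed. One library was wild type (WT) and the other triple transgenic (TG), written PNPLA3I148M-GIPRdn-hIAPP by the submitters: a variant of the lipid-droplet protein PNPLA3, a receptor for the incretin GIP in dominant-negative form and the human islet amyloid peptide. The WT and TG pigs alike ate a high-fat, high-sucrose diet over 12 months, so no group on a plain diet was analysed here. The labels give neither the age of the pigs, nor the promoters of the transgenes, nor how many animals a library holds. Each genotype is 1 library, so library and genotype cannot be told apart, no p-value was computed and every interval covers counting error only.

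Glycolysis splits glucose into pyruvate and yields ATP without oxygen. Hexokinase traps glucose in the cell, phosphofructokinase commits it to the pathway, and the later steps from GAPDH to pyruvate kinase recover the energy. Heart muscle burns mostly fatty acids when fasting and turns to glucose and lactate under load, insulin or lack of oxygen. It also stores glucose as glycogen, which glycogenin primes, glycogen synthase lengthens, the branching enzyme branches and phosphorylase degrades. Many of these steps have muscle and non-muscle isozymes encoded by separate genes, which differ in how they are regulated.

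The deposited values are counts of unique molecular identifiers (UMIs, counted RNA molecules). After filtering, 16725 WT and 14939 TG nuclei remained, with medians of 5442 and 3937 UMIs, and 81 barcodes occurred in both libraries. Nuclei were clustered and named by marker genes, and 8 classes held at least 100 nuclei in each library. They were cardiomyocyte-like (6914 WT and 5396 TG nuclei), fibroblast-like (2503 and 1898), vascular endothelial-like (1573 and 2852), macrophage-like (1442 and 507), lymphatic endothelial-like (948 and 589), T or NK lymphocyte-like (541 and 371), pericyte-like (406 and 535) and Schwann or neural-like (152 and 113). The T or NK and the neural part of these names are left out below. None of the 30 genes was among the 2000 variable genes used for clustering. Levels are summed UMIs of a class per 1000000 nuclear-encoded UMIs (CPM). A gene counted as measured with at least 50 UMIs over both libraries, and as higher or lower where its levels in the libraries differed by at least 1.5 times. With the shared barcodes left out the cardiomyocyte-like counts given below were 8 lower and 1 higher in place of 9 and 1. Median UMIs per cardiomyocyte-like nucleus were 9997 in WT and 7648 in TG.

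In cardiomyocyte-like nuclei most genes of both pathways stood at lower levels in TG. Of 28 measured genes, 9 were lower in TG by at least 1.5 times, 1 was higher and 18 were neither. Among all 16507 genes measured in these nuclei 9.86% were lower and 24.4% were higher, so the share of lower genes in the list (32.1%) was above that background and the share of higher genes (3.57%) below it. TG was under WT for 24 of the 28 genes, whatever the size of the difference, and the median log2 ratio of TG to WT was -0.44 against 0.04 for all genes. Over the glycolytic enzymes alone 7 of 16 were lower with a median of -0.50, and over the glycogen genes 2 of 10 with a median of -0.34. The 30 genes together took 2772 CPM in WT and 2115 in TG. ALDOC, the brain-type aldolase, had 3 UMIs in each library, and PFKFB1 had 7 and 6, so neither was measured.

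**Figure D1:**
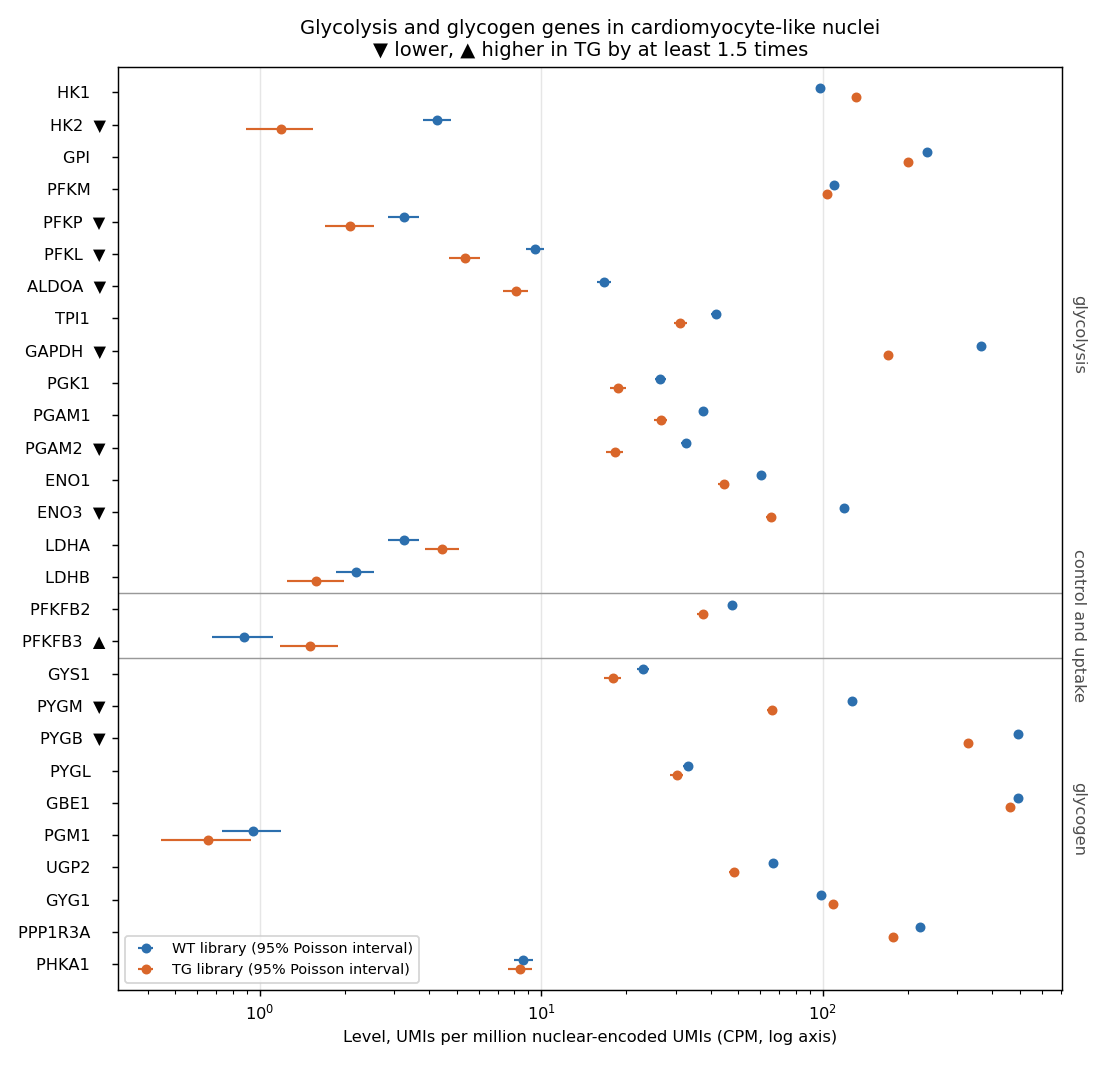
Level of each measured gene in cardiomyocyte-like nuclei (horizontal log axis, CPM), with 1 point per library and exact 95% Poisson intervals. Most TG points lie left of their WT points, as for GAPDH (170 against 364 CPM), while HK1, LDHA, PFKFB3 and GYG1 lie to the right.

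The first step of glycolysis differed by isozyme. HK1, the hexokinase expressed in most tissues and bound to mitochondria, stood at 97.4 CPM in WT and 131 in TG, a ratio of 1.34 (95% interval 1.298 to 1.39). HK2, the insulin-responsive hexokinase of muscle, stood at 4.26 CPM in WT (321 UMIs) and 1.19 CPM in TG (56 UMIs), a ratio of 0.278 (0.206 to 0.370). HK2 was thus the gene of the list with the lowest ratio, and its WT and TG intervals (3.81 to 4.76 and 0.896 to 1.54 CPM) did not overlap. HK1 made up 95.8% of the 7651 HK1 and HK2 UMIs in WT and 99.1% of 6230 in TG, a difference of 3.30 percentage points (2.78 to 3.82). GPI, which turns glucose 6-phosphate into fructose 6-phosphate, was at 234 CPM in WT and 200 in TG.

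Phosphofructokinase kept its main isozyme. PFKM, the muscle isozyme, was at 110 CPM in WT and 104 in TG, a ratio of 0.943 (0.910 to 0.977). The liver isozyme PFKL was lower in TG, with 9.47 CPM in WT and 5.34 in TG, and so was the platelet isozyme PFKP, with 3.25 and 2.10 CPM. Their ratios were 0.564 (0.486 to 0.652) and 0.644 (0.505 to 0.817). PFKM made up 89.6% of the 9225 UMIs of the 3 isozymes in WT and 93.3% of 5238 in TG. Per kilobase of gene span, which allows levels of different genes to be compared roughly, its share was 83.3% and 89.2%.

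The steps from aldolase to enolase held the genes with the highest levels per kilobase and 4 of the 9 lower genes. GAPDH, which oxidises glyceraldehyde 3-phosphate (chromosome 5, 64129678 to 64135194, Sscrofa11.1), was at 364 CPM in WT and 170 in TG, a ratio of 0.467 (0.456 to 0.479). ALDOA, the muscle aldolase, was at 16.7 and 8.11 CPM, a ratio of 0.486 (0.432 to 0.545). ENO3, the muscle enolase (chromosome 12, 51954614 to 51959991), was at 119 and 65.2 CPM, a ratio of 0.550 (0.528 to 0.573). PGAM2, the muscle phosphoglycerate mutase, was at 32.7 and 18.2 CPM, a ratio of 0.556 (0.514 to 0.602). In each of these 4 genes the 2 libraries' intervals lay apart.

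The partners of these genes differed by less than 1.5 times. PGAM1, the more widely expressed mutase, was at 37.6 CPM in WT and 26.5 in TG, and ENO1, the widely expressed enolase, at 60.2 and 44.4 CPM. TPI1, triosephosphate isomerase, stood at 41.6 and 31.2 CPM, and PGK1, phosphoglycerate kinase, at 26.4 and 18.7 CPM. All 4 ratios lay between 0.706 for PGAM1 and 0.749 for TPI1. Over the whole class the muscle isozyme's share was thus smaller in TG at both steps. ENO3 made up 66.3% of enolase UMIs in WT and 59.5% in TG, a difference of -6.84 points (-8.41 to -5.28). PGAM2 made up 46.5% and 40.7% of mutase UMIs, a difference of -5.85 points (-8.35 to -3.33). Within cluster 5, held by both libraries, the ratios were 0.719 for PGAM2 and 0.694 for PGAM1 (78 and 88 UMIs in TG). The PGAM2 share was therefore not smaller in TG there. Within cluster 8 the ratios were 0.517 and 0.729. Per kilobase of gene span GAPDH had the highest level of all members in both libraries (65.9 CPM per kb in WT and 30.8 in TG), ahead of ENO3 (22.04 and 12.1) and TPI1 (12.3 and 9.21).

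Pyruvate kinase and lactate dehydrogenase end the pathway. The gene identifier paired with PKM, the pyruvate kinase of muscle and most other tissues, was at 170 CPM in WT and 124 in TG, a ratio of 0.727 (0.704 to 0.750). LDHA, the lactate dehydrogenase subunit typical of skeletal muscle, was at 3.25 CPM in WT and 4.45 in TG. LDHB, the subunit typical of heart, was at 2.19 and 1.59 CPM. Both were low in these nuclei, with 410 and 285 UMIs for the pair. LDHB has 2 entries in the RefSeq annotation, so reads may have been split between near-identical copies, and its level and its share of the pair (40.2% in WT and 26.3% in TG) are uncertain.

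The PFKFB enzymes make and degrade fructose 2,6-bisphosphate, the main activator of phosphofructokinase. PFKFB2, the heart isozyme, was at 47.5 CPM in WT and 37.4 in TG. PFKFB3, the inducible isozyme of proliferating and inflammatory cells, was the only member called higher, at 0.877 CPM in WT (66 UMIs) and 1.504 CPM in TG (71 UMIs), a ratio of 1.72 (1.21 to 2.44). PFKFB2 nevertheless made up 98.0% of PFKFB UMIs in WT and 95.8% in TG. With 200 UMIs asked of a gene, with nuclei thinned to equal depth, or with each nucleus weighted the same, PFKFB3 was no longer counted.

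Glycogen breakdown was represented by 3 phosphorylases and a kinase subunit. PYGM, muscle phosphorylase (chromosome 2, 7409330 to 7421256), stood at 127 CPM in WT and 65.8 in TG, a ratio of 0.518 (0.497 to 0.539). PYGB, brain phosphorylase (chromosome 17, 30940457 to 30995688), was at 491 and 327 CPM, a ratio of 0.666 whose interval (0.654 to 0.679) spans the threshold for a lower call. PYGL, the liver isozyme, was at 33.1 and 30.3 CPM, and PHKA1, the muscle alpha subunit of phosphorylase kinase, at 8.63 and 8.41 CPM. By UMIs PYGB was the main phosphorylase, with 75.4% of 49041 UMIs in WT and 77.3% of 19994 in TG, while PYGM had 19.5% and 15.5%. PYGB has the longer span, and per kilobase PYGM led in WT with 53.0% against 44.2% for PYGB, while in TG PYGB led with 49.5% against 46.1%.

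Genes that build glycogen differed less than PYGM and PYGB, though some differed more than PYGL and PHKA1. GBE1, the branching enzyme (chromosome 13, 173634401 to 173909646), stood at 493 CPM in WT and 460 in TG, a ratio of 0.934 (0.9186 to 0.94998). GYG1, the glycogenin that primes a granule, was at 98.8 and 109 CPM, and GYS1, muscle glycogen synthase, at 23.0 and 17.9 CPM. UGP2, which makes UDP-glucose, was at 66.4 and 48.5 CPM. PPP1R3A, the muscle subunit that targets protein phosphatase 1 to glycogen, was at 221 and 177 CPM. PGM1, phosphoglucomutase, had 71 and 31 UMIs, or 0.943 and 0.657 CPM, and the name table pairs no identifier with this symbol. None of these 6 genes passed 1.5 times, and GYG1 was the one with TG above WT.

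A few features of the samples go with these values. A gene without a symbol, ENSSSCG00000048856, took 6.36% of the nuclear-encoded UMIs of cardiomyocyte-like nuclei in WT and 13.9% in TG. Leaving it out of the totals moved each log2 ratio up by 0.12: 7 genes then stayed lower, PFKP and PYGB did not, TG was under WT for 21 of 28 genes, and PFKM, GBE1 and PHKA1 changed direction. Scaling with TMM factors moved each log2 ratio down by 0.10 and added PGK1, PGAM1 and PGM1 to the lower genes. All 13 cardiomyocyte markers in the matrices were detected in the class, with summed levels of 42752 CPM in WT and 33772 in TG. Summed fibroblast markers in the class were 91.0 and 257 CPM, none of 12 being at 0, and summed macrophage markers 55.3 and 72.9 CPM. Their part in the differences was not tested.

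The cardiomyocyte-like class was held by different clusters in the 2 libraries. Most WT nuclei were in cluster 0 (4609) and cluster 5 (1701), and most TG nuclei in cluster 1 (2918) and cluster 14 (1003). Both libraries held at least 100 nuclei in cluster 5 (1701 WT and 452 TG) and cluster 8 (549 and 964). Within cluster 5 the median log2 ratio was -0.35 against -0.04 for all genes. Of 25 measured genes 6 were lower (HK2, with 3 UMIs in TG, ALDOA, GAPDH, ENO3, PYGM and PYGB) and HK1 was higher. PFKL, PFKP and PGAM2, lower in the class, were not called lower there (ratios of 0.915, 0.742 and 0.719). Within cluster 8 the median was -0.41 against -0.14, with 9 of 22 lower and HK1 again higher. The lower genes were GAPDH, ALDOA, ENO3, PGAM2, PFKL and PYGM, with PGK1, PYGL and UGP2, which were not lower in the class. PYGB was not called lower in cluster 8 (ratio 0.818). The share of all genes called within each cluster was not computed, so these counts have no background. TG was under WT for 23 of the 25 genes and for 21 of the 22.

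The level of GAPDH differed between clusters. In WT it was at 350 CPM in cluster 0 and 361 CPM in cluster 5, and at 820 CPM in cluster 8, whose WT nuclei had a median of 2156 UMIs against 11065 in cluster 0. ENO3 followed the same order in WT, with 116, 117 and 238 CPM. In TG, GAPDH was at 185 CPM in cluster 5, 278 in cluster 8, 158 in cluster 1 and 146 in cluster 14. Every TG cluster was therefore under every WT cluster for GAPDH, and the same held for PYGM, with 126 to 149 CPM in the WT clusters and 60.7 to 82.9 CPM in the TG clusters. HK1 showed the opposite order, with 91.1 to 101 CPM in the WT clusters and 124 to 178 CPM in the TG clusters.

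**Figure D2:**
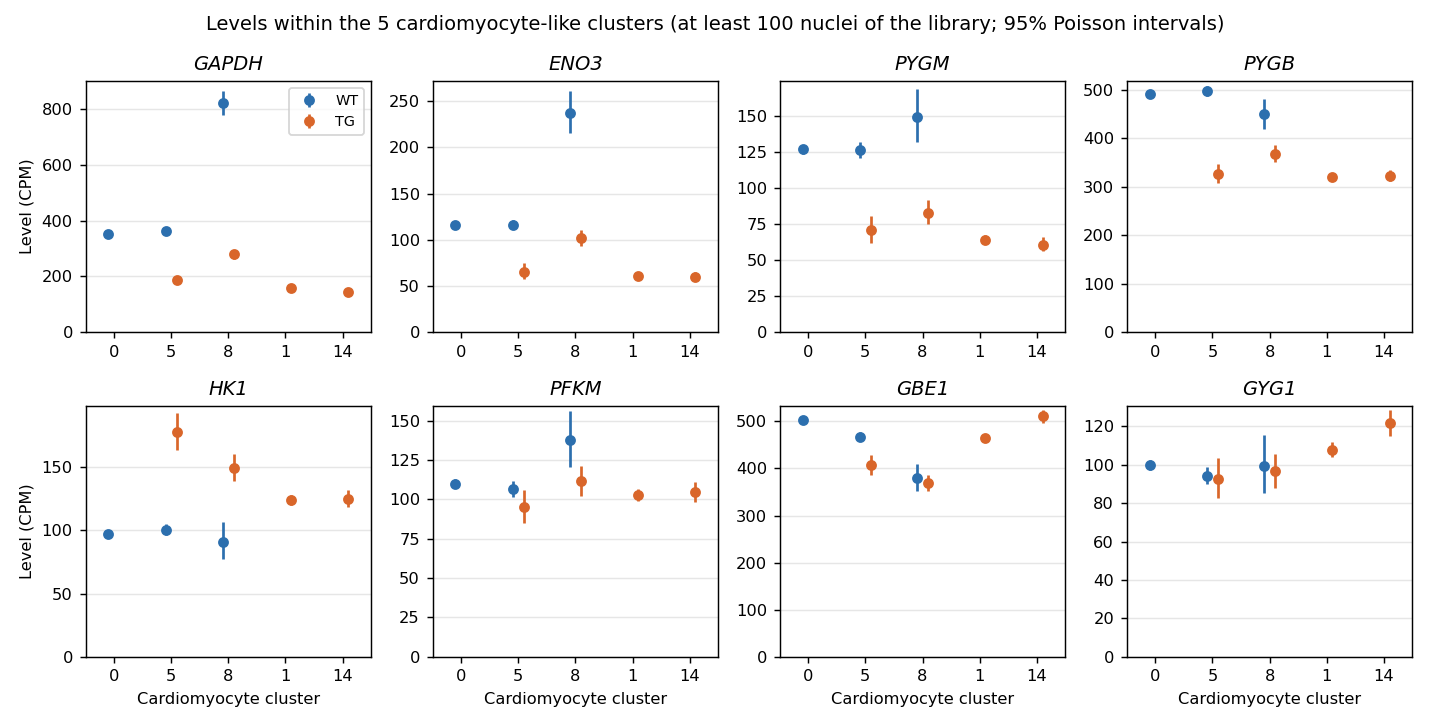
Levels of 8 genes (vertical axes, CPM, from 0) in the 5 cardiomyocyte-like clusters, for each library with at least 100 nuclei in a cluster, with exact 95% Poisson intervals. For GAPDH, PYGM and PYGB all TG points lie under all WT points, for HK1 all lie above, and for GBE1 and GYG1 the libraries overlap.

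The ratios also differed with gene length, with wide overlap. The 10 measured genes with a span under 20 kb had a median log2 ratio of -0.67, with 5 lower, and the 17 with a longer span had a median of -0.32, with 4 lower and 1 higher. The log2 ratios ran from -1.10 to 0.45 among the short genes and from -1.85 to 0.78 among the long ones. Short genes include GAPDH, TPI1, ENO3, PYGM and LDHA. Long ones include HK1 and GBE1, and also HK2, PFKL, PFKP and PYGB, which were lower. The same split over all genes was not computed. The part of span in the differences was not tested. Of 29 genes with 1 RefSeq entry, 14 overlap another annotated gene. The overlaps are 155 and 314 bases for GAPDH and 843 bases for PFKM, but reach 13963 bases for PGAM2, whose span is 18.956 kb. Without the strand used in counting, reads from such stretches cannot be told apart from those of the other gene.

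Shares of nuclei with a UMI gave the same order once each nucleus was thinned to 1000 UMIs, which left out 119 WT cardiomyocyte-like nuclei and no TG nuclei. GAPDH was then seen in 31.7% of WT nuclei (exact binomial interval 30.6% to 32.8%) and 18.2% of TG nuclei (17.2% to 19.2%). Before thinning the shares were 91.6% and 71.9%. PYGB was seen in 37.1% and 26.3% of thinned nuclei, against 90.6% and 82.0% before, and HK1 in 8.73% and 12.6%, against 52.5% and 56.1%. In macrophage-like nuclei PYGB was seen in 2.20% after thinning in WT and 6.31% in TG, from median depths of 3858 and 2689 UMIs.

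Outside cardiomyocytes the medians of the log2 ratios lay above 0. In fibroblast-like nuclei 12 of 25 measured genes were higher in TG and 1 was lower, against backgrounds of 16.9% and 10.3%, and the median of the log2 ratios was 0.34. Of 25 genes in macrophage-like nuclei 10 were higher and 0 lower (17.0% and 10.7% of all genes), and the median was 0.35, and in lymphatic endothelial-like nuclei 8 of 25 were higher and 1 lower (11.9% and 11.4%), with a median of 0.24. Pericyte-like nuclei had 6 of 20 higher and 0 lower (17.0% and 10.6%), and vascular endothelial-like nuclei 6 of 26 higher and 1 lower (13% and 8.39%), with medians of 0.18 and 0.07. lymphocyte-like nuclei had 3 of 21 higher and 2 lower (19.7% and 14.2%), and Schwann-like nuclei 4 of 11 higher and 1 lower (16.4% and 15.6%). The difference in direction between classes was not tested, since all classes come from the same 2 libraries. The fibroblast-like class was held by different clusters in the libraries, cluster 2 with 2432 WT and 7 TG nuclei and cluster 6 with 43 and 1891, so its values compare those clusters. In the pericyte-like class summed pericyte markers were at 4673 CPM in WT and 2321 in TG, smooth muscle markers at 2628 and 3118 and fibroblast markers at 2112 and 4239. On the TG side the name is therefore uncertain. The smooth muscle-like class held 147 WT and 7 TG nuclei, and clustering TG alone gave 240 pericyte-like and 171 smooth muscle-like nuclei.

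Most cardiomyocyte markers were also at higher levels in the other classes of the TG library. In CPM, 11 of 13 markers were above WT in all 7 classes, whereas ACTC1, cardiac actin, was below WT in all 7 (110.8 and 94.3 CPM in fibroblast-like nuclei) and CTNNA3 in vascular endothelial-like nuclei (242.6 and 217.8). The TG cardiomyocyte level of ACTC1 was itself lower, at 139 CPM against 506, as was that of the summed markers (33772 against 42752). The median of 13 cardiomyocyte markers, relative to their level in cardiomyocyte-like nuclei, was 14.5% to 26.3% over the 7 other classes in WT and 43.1% to 54.9% in TG, with none of the markers at 0. Markers differed widely in this. MYL2, a myosin light chain, was at 0.347 to 0.524 times its cardiomyocyte level in WT and 1.55 to 1.84 times in TG, and MYH7, the slow myosin heavy chain, at 0.352 to 0.547 and 1.32 to 1.52 times. RYR2, the calcium release channel, was at 0.00825 to 0.0308 and 0.0273 to 0.0639 times, after nuclei outside cardiomyocyte clusters with at least 4000 CPM of RYR2 had been set aside. The part of these transcripts in the higher levels of glycolysis and glycogen genes was not tested gene by gene. A library-wide profile was also subtracted, at the share set by the cardiomyocyte markers. It was summed over all nuclei of a library that passed filtering, so it is no direct measure of free RNA. The medians then became -0.02 in fibroblast-like, -0.31 in macrophage-like and -0.28 in vascular endothelial-like nuclei.

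**Figure D3:**
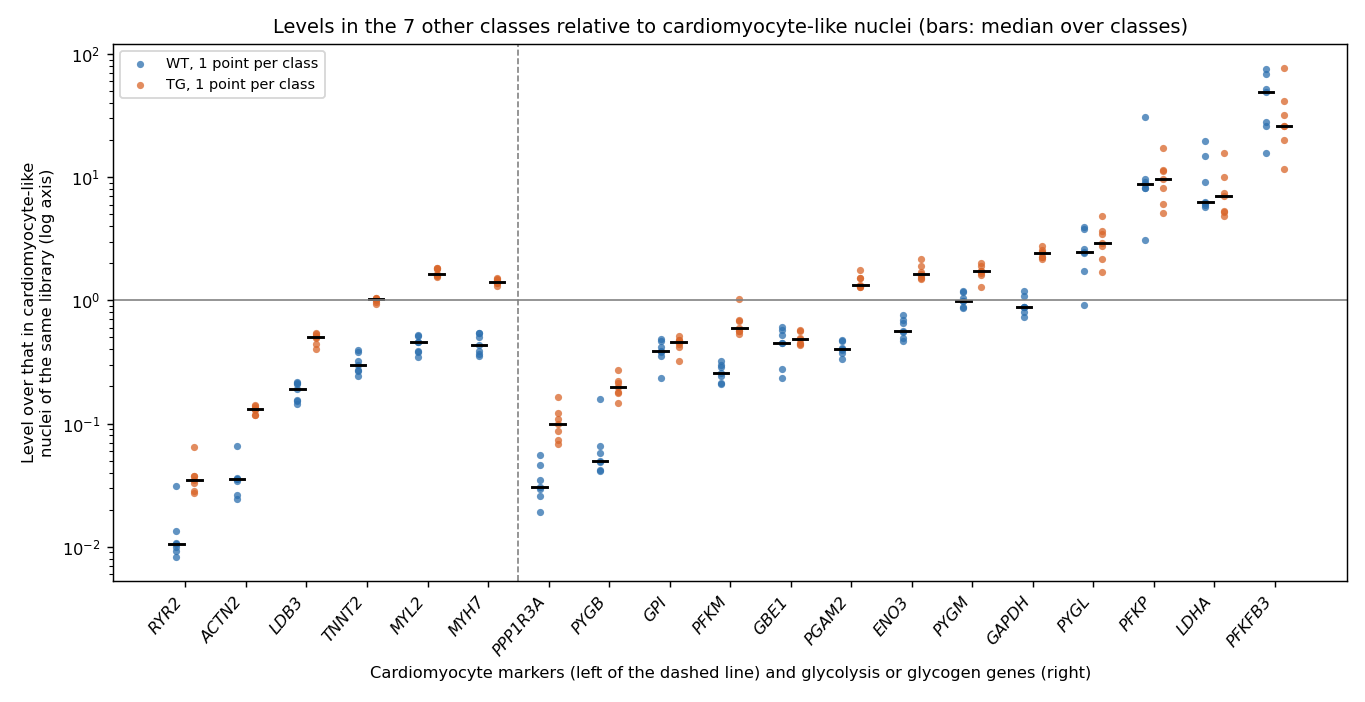
Level in each of the 7 other classes divided by that in cardiomyocyte-like nuclei of the same library (vertical log axis), 1 point per class and library, for 6 cardiomyocyte markers and 13 glycolysis or glycogen genes. All 6 markers sit higher in TG, as do PPP1R3A, PYGB, PFKM, PGAM2, ENO3 and GAPDH, whereas PFKFB3, LDHA and PFKP sit above 1 in both libraries.

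PPP1R3A and PYGB, whose levels were higher in cardiomyocytes than in any other class, were among the genes furthest apart between libraries. PPP1R3A went from 4.23 CPM in WT to 15.5 CPM in TG in fibroblast-like nuclei, a ratio of 3.66 (2.52 to 5.38), from 10.3 to 17.6 CPM in vascular endothelial-like nuclei, and from 6.69 to 19.3 CPM in macrophage-like nuclei. Over the 7 classes it was at 1.91% to 5.56% of its cardiomyocyte level in WT and 6.86% to 16.6% in TG. PYGB was at 20.8 and 58.0 CPM in fibroblast-like, 32.2 and 59.5 in vascular endothelial-like and 20.4 and 72.5 in macrophage-like nuclei. In lymphatic endothelial-like and pericyte-like nuclei it was at 24.1 and 48.3 CPM and at 28.6 and 65.0 CPM. PYGB stayed at or under 15.9% of its cardiomyocyte level in WT and 27.0% in TG.

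PFKM was higher in TG in all 7 classes. It was at 26.6 and 70.0 CPM in fibroblast-like, 32.6 and 58.6 in vascular endothelial-like, 22.8 and 58.5 in macrophage-like and 23.3 and 55.7 in lymphatic endothelial-like nuclei. The values were 35.3 and 61.5 CPM in lymphocyte-like, 31.4 and 71.3 in pericyte-like and 28.1 and 105 in Schwann-like nuclei. PGAM2 was higher in all 6 classes where it was measured, with 13.3 and 27.6 CPM in fibroblast-like, 15.5 and 27.6 in vascular endothelial-like and 10.97 and 31.9 in macrophage-like nuclei. In lymphatic endothelial-like, lymphocyte-like and pericyte-like nuclei PGAM2 was at 13.4 and 23.9, 15.2 and 24.2, and 12.8 and 23.2 CPM. ENO3 was among the 5 furthest apart in lymphatic endothelial-like (55.2 and 107 CPM) and Schwann-like nuclei (66.7 and 141 CPM).

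**Figure D4:**
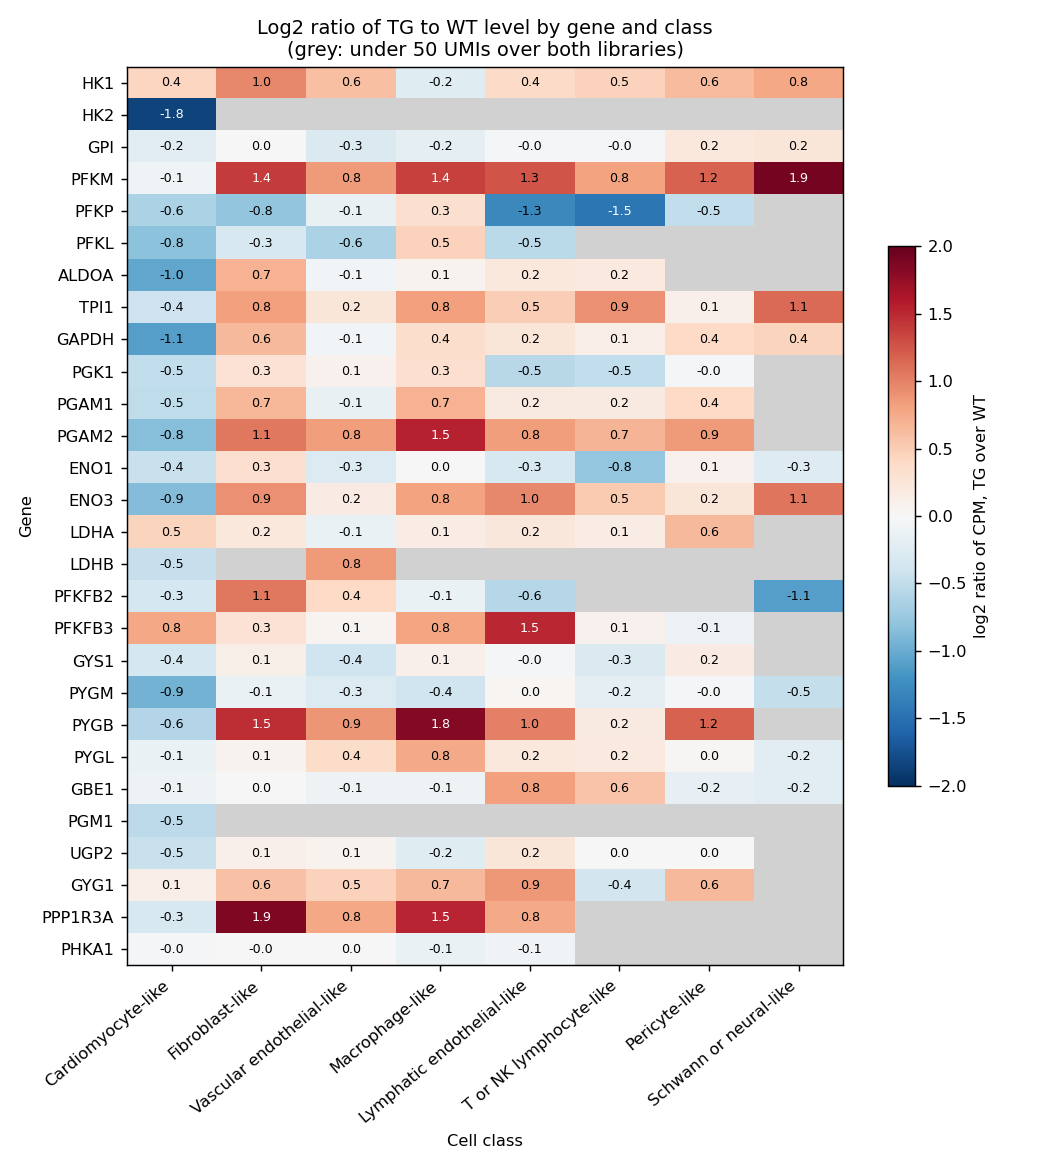
Log2 ratio of the TG to the WT level for each gene (rows) in each class (columns), with red higher and blue lower in TG and grey for genes under 50 UMIs over both libraries. The cardiomyocyte column is mostly blue, while the rows of PFKM, PGAM2, PYGB and PPP1R3A are red in the other classes.

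Other differences outside cardiomyocytes concerned PFKP, ENO1, PFKFB3, TPI1 and LDHB. PFKP was lower in TG in lymphocyte-like nuclei, at 99.5 CPM in WT and 36.4 in TG, a ratio of 0.366 (0.255 to 0.514). It was also lower in lymphatic endothelial-like (26.4 and 10.8 CPM) and fibroblast-like nuclei (29.7 and 17.1 CPM). ENO1 was lower in lymphocyte-like nuclei (183 and 107 CPM). In that class summed T or NK markers were at 7233 CPM in WT and 3672 in TG and vascular endothelial markers at 385 and 1464, and their part in the PFKP and ENO1 values was not tested. PFKFB3 was higher in lymphatic endothelial-like nuclei, at 13.8 and 39.2 CPM, a ratio of 2.83 (1.99 to 4.03), and in macrophage-like nuclei, at 66.3 and 115 CPM, a ratio of 1.73 (1.44 to 2.08). TPI1 was higher in macrophage-like (40.6 and 71.8 CPM), lymphocyte-like (46.2 and 87.5 CPM) and Schwann-like nuclei (45.6 and 99.6 CPM). LDHB in vascular endothelial-like nuclei was at 2.42 and 4.35 CPM, with the doubt about its copies given above.

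HK1 had a higher level in TG than in WT in cardiomyocytes and in 6 of the 7 other classes. It passed the threshold, differing by at least 1.5 times in fibroblast-like (82.9 and 162 CPM), vascular endothelial-like (130 and 197 CPM), pericyte-like (80.7 and 125 CPM) and Schwann-like nuclei (89.5 and 152 CPM). In macrophage-like nuclei it was at 157 CPM in WT and 133 in TG. GYG1 was at 29.3 and 45.8 CPM and LDHA at 19.99 and 31.3 CPM in pericyte-like nuclei. PFKFB2 was at 3.01 and 6.26 CPM in fibroblast-like nuclei and at 119 and 55.6 CPM in Schwann-like nuclei, where it was the only lower gene.

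Several genes had their highest levels outside cardiomyocytes. PFKFB3 was 15.8 to 75.7 times its cardiomyocyte level in WT and 11.7 to 76.5 times in TG, with its highest level in macrophage-like nuclei. In fibroblast-like nuclei PFKFB3 was at 24.6 CPM in WT and 30.2 in TG, in vascular endothelial-like at 59.99 and 62.5, in lymphocyte-like at 45.7 and 48.5 and in pericyte-like at 42.8 and 39.4. In lymphocyte-like nuclei LDHA was at 63.6 and 70.1 CPM, 19.5 and 15.8 times its cardiomyocyte level, and in vascular endothelial-like nuclei at 48.7 and 44.4 CPM, 15.0 and 9.99 times. Elsewhere LDHA was at 18.7 and 21.7 CPM in fibroblast-like, 30.0 and 33.3 in macrophage-like and 20.3 and 23.9 in lymphatic endothelial-like nuclei. PFKP was also at least 3.11 times its cardiomyocyte level in every class of either library, as in vascular endothelial-like (26.6 and 24.1 CPM), macrophage-like (10.1 and 12.6) and pericyte-like nuclei (28.6 and 20.3).

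PYGL, PHKA1, UGP2 and PFKL also passed 2 times the cardiomyocyte level in some classes. PYGL was highest in Schwann-like (130 CPM in WT and 111 in TG) and lymphocyte-like nuclei (127 and 145). In fibroblast-like, vascular endothelial-like and pericyte-like nuclei it was at 80.4 and 84.0, 81.1 and 105, and 87.1 and 88.2 CPM. Lymphatic endothelial-like nuclei had 56.8 and 65.9 CPM, and macrophage-like nuclei, where PYGL was higher in TG, 30.5 and 51.9 CPM. PHKA1 was at 21.1 and 19.3 CPM in macrophage-like nuclei, 2.44 and 2.29 times its cardiomyocyte level. UGP2 passed 2 times the cardiomyocyte level in TG in lymphatic endothelial-like (110 CPM in WT and 130 in TG) and lymphocyte-like nuclei (117 and 118). PFKL was at 24.2 and 19.3 CPM in fibroblast-like, 19.3 and 12.4 in vascular endothelial-like and 11.7 and 15.96 in macrophage-like nuclei.

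GAPDH in cardiomyocyte-like nuclei lay within the range of the other classes in WT but under it in TG. In WT it ranged from 266 CPM in fibroblast-like to 432 CPM in lymphocyte-like nuclei, with 364 CPM in cardiomyocyte-like nuclei inside that range. In TG it ranged from 370 to 472 CPM in the 7 other classes, at least 2.18 times the 170 CPM of cardiomyocyte-like nuclei. Fibroblast-like nuclei had 416 CPM in TG, vascular endothelial-like 398 CPM in WT and 384 in TG, macrophage-like 291 and 370, lymphatic endothelial-like 323 and 380, pericyte-like 321 and 421 and Schwann-like 323 and 439. PYGM was likewise at 111 to 152 CPM in the other classes in WT around 127 CPM in cardiomyocytes, and at 85.1 to 132.5 CPM in TG against 65.8. It passed 2 times the cardiomyocyte level in lymphocyte-like nuclei of TG, at 152 CPM in WT and 132.5 in TG.

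Other glycolytic genes passed 2 times the cardiomyocyte level in TG alone, where the cardiomyocyte level was lower. TPI1 did so in fibroblast-like (44.9 CPM in WT and 79.4 in TG), vascular endothelial-like (68.5 and 80.9) and pericyte-like nuclei (59.2 and 63.2), besides the 3 classes named above. ALDOA did so in fibroblast-like (10.8 and 17.5 CPM) and lymphocyte-like nuclei (19.6 and 22.5). PGK1 did so in fibroblast-like (34.5 and 42.2 CPM) and vascular endothelial-like nuclei (35.6 and 37.6), and in both libraries in lymphatic endothelial-like nuclei (57.3 and 39.2). ENO1 did so in fibroblast-like (108 and 136 CPM) and lymphatic endothelial-like nuclei (116 and 93.1), and PGAM1 in lymphocyte-like nuclei (60.3 and 68.4).

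Isozyme use differed between cardiomyocytes and other classes. PFKFB2 made up 98.0% of PFKFB UMIs in cardiomyocyte-like nuclei of WT, whereas PFKFB3 made up 88.5% in fibroblast-like, 87.6% in vascular endothelial-like, 72.9% in macrophage-like and 92.3% in lymphocyte-like nuclei. By UMIs, Schwann-like nuclei were the other class in which PFKFB2 led, with 84.0% of 81 UMIs in WT and 76.0% of 25 in TG. Per kilobase of span PFKFB2 also led in lymphatic endothelial-like nuclei of WT, with 58.8% against 41.2% for PFKFB3. In lymphatic endothelial-like nuclei the PFKFB3 share was 62.3% of 106 UMIs in WT and 87.3% of 79 in TG. LDHA made up 90.3% to 99.4% of lactate dehydrogenase UMIs in the 7 other classes in WT, against 59.8% in cardiomyocytes. In TG the shares overlapped, with 72.7% in Schwann-like (11 UMIs), 79.4% in pericyte-like and 83.1% in fibroblast-like nuclei against 73.7% in cardiomyocytes. HK1 made up at least 93.5% of hexokinase UMIs in every class of both libraries.

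Phosphofructokinase use outside cardiomyocytes differed between the libraries. In WT the PFKM share was 24.8% in lymphocyte-like, 33.1% in fibroblast-like, 37.0% in lymphatic endothelial-like, 41.5% in vascular endothelial-like and 51.2% in macrophage-like nuclei. In TG the same shares were 55.5%, 65.7%, 73.7%, 61.6% and 67.2%, closer to the 93.3% of cardiomyocytes. PFKP was the leading isozyme of lymphocyte-like nuclei in WT, with 69.8% of 262 UMIs, and had 32.8% of 128 UMIs in TG. The ENO3 share moved the same way, from 29.9% to 56.3% over the 7 other classes in WT to 47.5% to 67.6% in TG. These shifts went together with the higher cardiomyocyte marker levels given above, and their part was not tested.

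**Figure D5:**
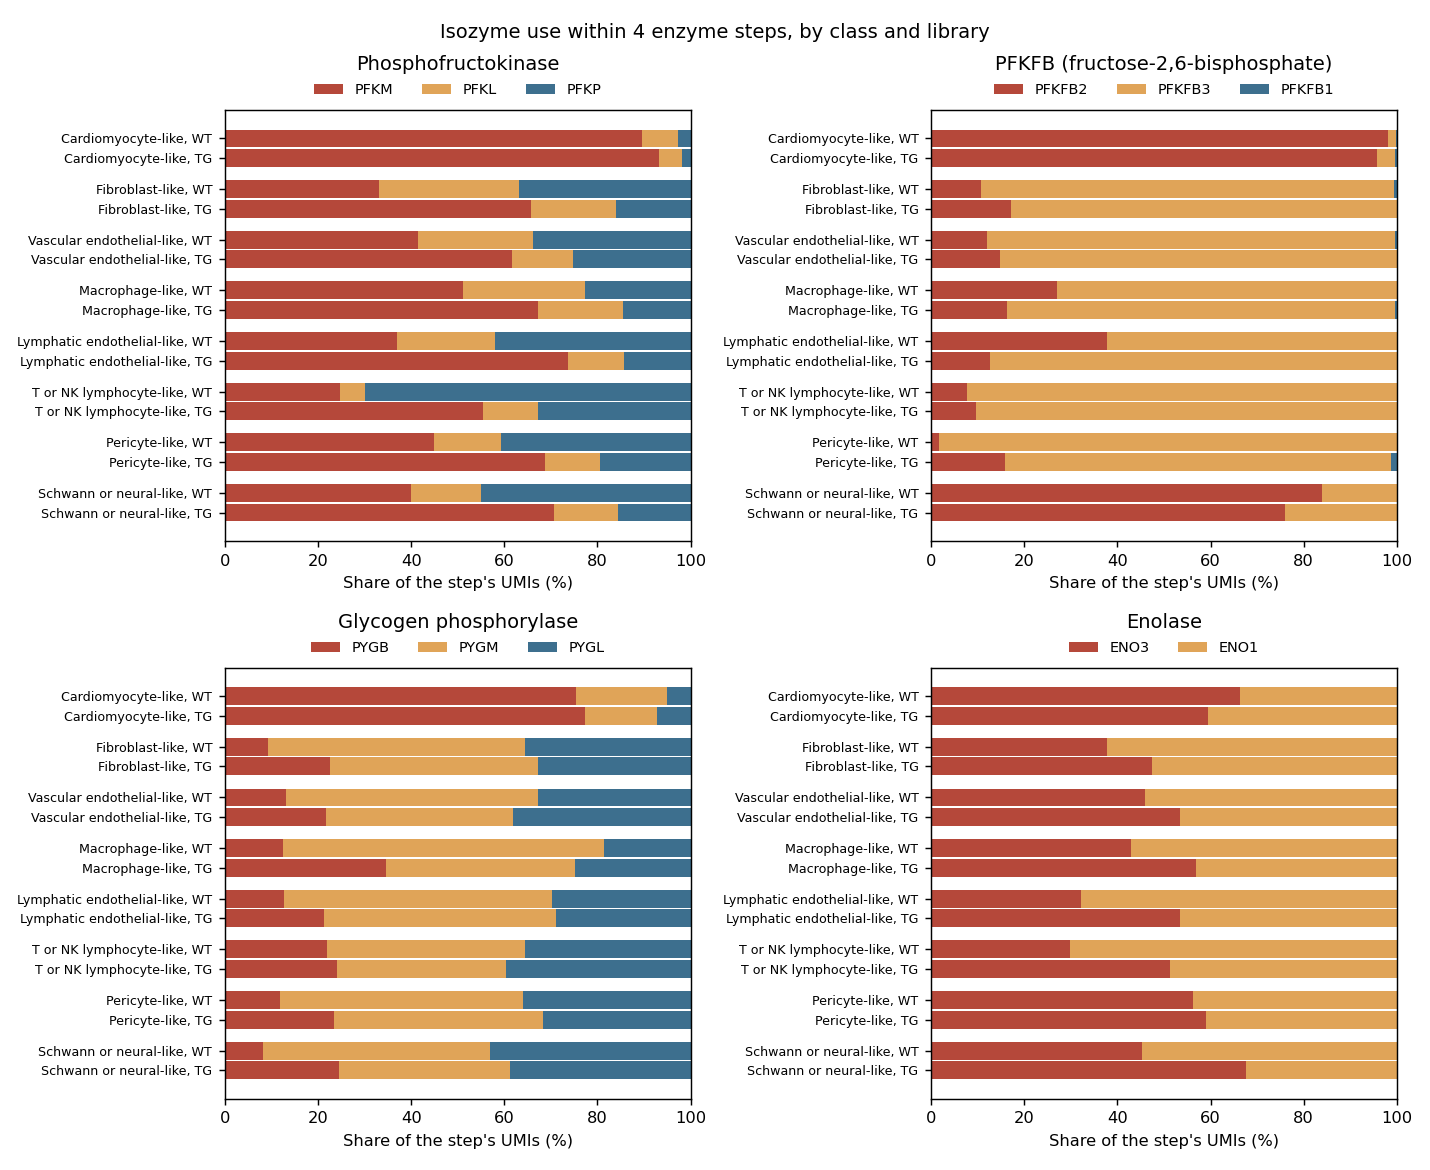
Share of each isozyme in the UMIs of 4 enzyme steps (horizontal axis, percent), by class and library. PFKFB2 fills most of the cardiomyocyte and Schwann or neural bars and PFKFB3 the others, and the PFKM part is longer in TG than in WT in all 8 classes.

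Glycogen phosphorylase also differed by class. PYGB had 75.4% of UMIs in cardiomyocyte-like nuclei of WT and 8.14% to 21.9% in the other classes, where PYGM had 42.6% to 68.9% and PYGL 18.6% to 43.0%. In TG the PYGB share of the other classes was 21.2% to 34.6%. The macrophage-like class had the largest PYGM share in WT, 68.9% of 955 UMIs, and 40.6% of 315 in TG. GBE1 was at 116 to 300 CPM in the other classes in WT and 201 to 264 CPM in TG, and was higher in TG in lymphatic endothelial-like nuclei, at 116 and 204 CPM.

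Other genes of the pathways were read from lists of carriers, further isozymes, glycogen control, side branches and regulators. Their counts stand against 9.86% lower and 24.4% higher among all genes of cardiomyocyte-like nuclei. There 1 of 6 measured carriers was lower and 1 was higher. SLC2A4, the insulin-responsive glucose carrier GLUT4, was at 98.6 CPM in WT and 37.3 in TG, a ratio of 0.378 (0.359 to 0.399). SLC2A10 was at 2.59 and 4.32 CPM. The lactate carrier SLC16A1 (MCT1) was at 225 and 234 CPM, a ratio of 1.04 (1.02 to 1.07). Of 19 measured genes of glycogen making, breakdown and control 3 were lower and 1 was higher. PPP1R3C, a phosphatase subunit that brings glycogen synthase and phosphorylase together, was at 161 and 60.2 CPM, a ratio of 0.373 (0.358 to 0.389). PPP1R3B, another targeting subunit, was at 13.7 and 7.67 CPM, and PPP1R3E at 6.93 and 12.0 CPM. GYG2, the liver-type glycogenin, was at 6.10 CPM in WT (459 UMIs) and 0.466 CPM in TG (22 UMIs), a ratio of 0.0764 (0.0474 to 0.117).

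Among 13 further isozymes and side enzymes 4 were higher in cardiomyocyte-like nuclei of TG and 0 lower, a share of higher genes near the 24.4% of all genes. Those higher included HKDC1, a hexokinase relative (0.252 and 1.16 CPM), and FBP1, a gluconeogenic enzyme best known from liver (0.584 and 1.16). Of 11 genes of the pentose phosphate and hexosamine branches PGD (28.5 and 17.3 CPM) and TALDO1 (6.26 and 4.02) were lower and GFPT2 (0.638 and 1.08) was higher. Of 13 regulators of glucose use 3 were lower. ESRRG, a nuclear receptor that drives metabolic genes in heart, was at 1129 and 640 CPM, a ratio of 0.566 (0.559 to 0.574), ESRRA at 7.81 and 4.11 CPM and EPAS1, a hypoxia-inducible factor, at 57.7 and 33.4 CPM. MLXIPL, a glucose-sensing transcription factor, was higher, at 1.05 and 2.65 CPM. The median log2 ratios of the 5 lists were 0.06 for carriers, -0.10 for isozymes, -0.22 for glycogen control, 0.05 for the branches and -0.34 for regulators, against 0.04 for all genes.

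Genes of these lists also differed outside cardiomyocytes, beside the marker levels given above. PPP1R3C was higher in TG in 6 other classes, opposite to its direction in cardiomyocytes. It was at 15.4 and 40.7 CPM in fibroblast-like, 18.5 and 33.3 in vascular endothelial-like, 14.7 and 27.9 in macrophage-like, 11.5 and 31.2 in lymphatic endothelial-like, 18.5 and 31.2 in lymphocyte-like and 13.6 and 32.5 in pericyte-like nuclei. GYG2 was higher in fibroblast-like (2.54 and 12.5 CPM) and pericyte-like nuclei (30.7 and 71.9). The difference in direction between classes was not tested.

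The lactate and pyruvate carriers were higher in several classes of TG. SLC16A7 (MCT2) was at 60.2 and 111 CPM in vascular endothelial-like, 40.9 and 93.1 in lymphatic endothelial-like, 32.6 and 131 in lymphocyte-like and 35.0 and 172 in pericyte-like nuclei, and at 1196 and 1283 CPM in cardiomyocytes. SLC16A1 stood at 14.2 and 55.2 CPM in macrophage-like, 18.7 and 36.3 in lymphatic endothelial-like and 24.98 and 51.6 in pericyte-like nuclei. SLC2A12 was higher in vascular endothelial-like (4.23 and 8.69 CPM) and lower in fibroblast-like nuclei (16.5 and 10.7), and SLC2A10 was higher in pericyte-like nuclei (12.1 and 20.9). Among the side enzymes GPD1, which links glycolysis to glycerol, was at 6.58 and 11.2 CPM in fibroblast-like and 6.51 and 11.3 in macrophage-like nuclei. BPGM, which makes 2,3-bisphosphoglycerate, was lower in vascular endothelial-like (6.85 and 3.71 CPM) and lymphatic endothelial-like nuclei (13.6 and 7.95). In lymphocyte-like nuclei PFKFB4 (35.3 and 16.5 CPM) and TIGAR (39.1 and 22.5), which both act on fructose 2,6-bisphosphate, were lower. TIGAR was higher in fibroblast-like nuclei (6.49 and 10.1 CPM), as was ENO2 (2.73 and 4.79), and LDHD (2.62 and 5.62) and FBP1 (2.82 and 4.77) were higher in vascular endothelial-like nuclei.

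Several glycogen genes were lower in TG in 1 to 3 of the other classes. In the glycogen list 3 of 17 measured genes were lower in fibroblast-like nuclei (10.3% of all genes). Vascular endothelial-like nuclei had 2 of 17 (8.39%), macrophage-like and lymphatic endothelial-like nuclei 1 of 15 each (10.7% and 11.4%). Lymphocyte-like nuclei had 2 of 11 (14.2%), pericyte-like 1 of 10 (10.6%) and Schwann-like 1 of 5 (15.6%). These counts are small and lie near the shares of all genes. PGM5, a phosphoglucomutase relative without enzyme activity found at muscle cell junctions, was at 454 and 143 CPM in vascular endothelial-like and 1219 and 786 in pericyte-like nuclei, and was higher in macrophage-like (6.86 and 22.6) and lymphocyte-like nuclei (22.3 and 57.2). GAA, the lysosomal glucosidase that degrades glycogen, was lower in fibroblast-like nuclei (48.1 and 26.3 CPM), as was PHKA2 (11.6 and 5.71), and PHKG1 was higher there (2.54 and 5.52). PPP1R3D was lower in fibroblast-like (7.99 and 4.60 CPM), macrophage-like (8.57 and 4.66) and lymphatic endothelial-like nuclei (10.3 and 6.81), and PPP1R3B in vascular endothelial-like nuclei (10.1 and 5.72). PHKB, the beta subunit of phosphorylase kinase, was lower in Schwann-like nuclei (240.4 and 152 CPM). In lymphocyte-like nuclei the phosphatase subunits PPP1CA (23.9 and 9.53 CPM) and PPP1CC (172 and 98.7) were lower and PGM2L1 (10.9 and 30.3) higher, and PGM2 was higher in lymphatic endothelial-like nuclei (12.8 and 21.0). RPIA, an enzyme of the pentose phosphate branch, was higher in lymphatic endothelial-like nuclei (13.6 and 22.1 CPM).

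Several regulators of glucose use differed outside cardiomyocytes. TXNIP, an inhibitor of glucose uptake induced by glucose, was at 822 and 1969.5 CPM in lymphatic endothelial-like, 656 and 1552 in vascular endothelial-like, 180 and 537 in lymphocyte-like and 677 and 1031 in Schwann-like nuclei. In cardiomyocytes it was at 308 and 425 CPM. EPAS1 was higher in fibroblast-like (13.9 and 28.7 CPM), macrophage-like (7.89 and 31.9), lymphatic endothelial-like (39.2 and 122), lymphocyte-like (36.4 and 195) and Schwann-like nuclei (38.6 and 170), and was at 962 and 967 CPM in vascular endothelial-like nuclei, its highest class. Summed vascular endothelial markers were also higher in TG in lymphocyte-like (385 and 1464 CPM) and Schwann-like nuclei (261 and 1549), but not in fibroblast-like (356 and 233) or macrophage-like nuclei (601 and 526), and were at 4977 and 5025 CPM in lymphatic endothelial-like nuclei. Their part in the EPAS1 values was not tested. PPARGC1A, a coactivator of mitochondrial genes, was higher in macrophage-like (14.1 and 43.9 CPM), lymphatic endothelial-like (9.23 and 23.9), lymphocyte-like (15.2 and 43.3) and pericyte-like nuclei (23.6 and 68.4). ESRRG was higher in macrophage-like (17.8 and 36.6 CPM) and lymphocyte-like nuclei (17.4 and 44.2), opposite to its direction in cardiomyocytes. PRKAA2, a catalytic subunit of the energy sensor AMPK, was higher in fibroblast-like (30.5 and 50.3 CPM), macrophage-like (16.1 and 49.9), lymphocyte-like (15.2 and 65.8) and Schwann-like nuclei (45.6 and 102). VDAC1, a channel of the outer mitochondrial membrane, was higher in fibroblast-like (57.5 and 116 CPM), macrophage-like (39.3 and 95.1) and lymphatic endothelial-like nuclei (42.2 and 76.7). PRKAG2, a regulatory subunit of AMPK, was lower in vascular endothelial-like (89.6 and 41.5 CPM), lymphatic endothelial-like (685 and 434), lymphocyte-like (279.9 and 182) and Schwann-like nuclei (184 and 120.1). MLXIP was lower in lymphatic endothelial-like (129.8 and 84.6 CPM) and lymphocyte-like nuclei (92.9 and 57.2), and PRKAB2 was higher in macrophage-like nuclei (18.7 and 28.6).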

How the data were processed

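Single-nucleus libraries were made with 10x Genomics Chromium chemistry, per the labels' protocols. The deposited values are UMI counts, 1 matrix per library. Per the submitters' processing notes they were made with Cell Ranger 3.1.0 and Seurat 3.1.1 on Sscrofa11.1, while cellranger 5.0.0 stands in the matrices, per the file headers, and which of them applies is not settled. WT held 18251 barcodes with 127126477 UMIs and TG 15000 with 89324966. The lowest totals were 500 and 1972 UMIs.

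Nuclei with at least 500 genes and at most 5% mitochondrially encoded UMIs were clustered together (scanpy 1.11.5, leidenalg 0.10.2, Python 3.11.15) on 2000 variable genes, 30 components and 15 neighbours at resolution 1, without batch correction. No doublet caller was used. A marker passed with 20 CPM or more, if it exceeded the 25th percentile of clusters by 1 on the log2 scale. A cluster was named for a class if 3 or more of the class's markers, and 60% of them, passed. At least 1 also had to be among the genes furthest above that percentile. Cardiomyocyte-like clusters were instead named for a median of at least 4000 CPM of RYR2 per nucleus. They also needed 3 or more passing cardiomyocyte markers and no strongly marked other class. Clusters with unrelated markers (974 WT and 1037 TG nuclei), nuclei outside cardiomyocyte clusters with at least 4000 CPM of RYR2 (832 and 1439) and unnamed clusters (252 and 190) were set aside. Those limits were chosen with the clusters in view, and the ending "-like" marks a name read from RNA.

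UMIs were summed per class and library. Levels carry exact Poisson intervals, ratios conditional binomial intervals and share differences Newcombe intervals, at 95% (scipy 1.17.1); the interval code was tested on simulated data. Medians of log2 ratios use 0.5 added to each count. TMM factors came from edgeR 4.0.16 (R 4.3.3). The members and all gene lists were chosen with earlier results of these data known. In cardiomyocyte-like nuclei every measured gene is named; in other classes the 5 furthest apart, and those at 2 times the cardiomyocyte level or more; of other lists, genes past 1.5 times, some of which are not reported here. Coordinates are from RefSeq on Sscrofa11.1. Alternatives changed filters, clustering, scaling, depth, weighting and the treatment of mixed clusters, or subtracted a library-wide profile.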

Additional observations from a re-analysis of the deposited data

Results flagged for a closer look

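In 5 genes the cardiomyocyte-like class and at least 1 other class went opposite ways, each by at least 1.5 times. The share of all genes doing so was not computed, so the count has no background. With 1 library per genotype the difference in direction was not tested, and all classes come from the same 2 libraries. Gaps are given for the class furthest from cardiomyocytes. The gap between the log2 ratios of TG to WT was 1.74 for ALDOA and 1.74 for GAPDH in fibroblast-like against cardiomyocyte-like nuclei. It was 1.94 for ENO3 in Schwann-like nuclei, 2.39 for PGAM2 in macrophage-like nuclei and 2.41 for PYGB in macrophage-like nuclei. PGAM2 was higher in 6 of the 6 other classes where it was measured, PYGB in 5 of 6, ENO3 in 4 of 7, and GAPDH and ALDOA in 1 class each. Summed cardiomyocyte markers were higher in TG as well. They were at 3239 and 10680 CPM in fibroblast-like, 3239 and 10322 in macrophage-like and 4039 and 10862 in Schwann-like nuclei. Relative to cardiomyocyte-like nuclei, the medians were 51.5%, 52.1% and 50.3% in TG against 19.5%, 17.5% and 21.3% in WT. The summed level in cardiomyocyte-like nuclei was itself lower in TG (33772 against 42752 CPM), which raises these percentages.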

How the results depend on the processing

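The lower levels in cardiomyocyte-like nuclei kept their direction under all 16 alternatives, with medians between -0.54 and -0.32. Clustering without the members changed nothing, as none of them was among the variable genes. Asking for 20 UMIs kept the same 28 genes. Neither of these settings could move the median. The reported median was -0.44, and -0.54 came from TMM factors. The count of lower genes ran from 6 (within cluster 5) to 12, apart from 3 when a ratio of 2 was asked. The count of higher genes, 1 as reported, was 0 with nuclei thinned to 1000 UMIs, 0 with each nucleus weighted the same, 0 with at least 200 UMIs and 0 with a ratio of 2. Leaving out cluster 8 and leaving out the shared barcodes were chosen after seeing the data, as was counting in nuclei of cardiomyocyte signal for the other classes.

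Among the other classes, alternatives were run only for the fibroblast-like, macrophage-like and vascular endothelial-like medians. These medians changed sign under some settings, and the cause was not tested. With the library-wide profile subtracted they were -0.021 in fibroblast-like, -0.31 in macrophage-like and -0.28 in vascular endothelial-like nuclei. The vascular endothelial median, 0.07, was also -0.0046 with each nucleus weighted the same and -0.10 with nuclei of cardiomyocyte signal counted in. The other alternatives kept these signs.

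Isozyme shares kept their direction under every alternative run for them, which did not include shares within single clusters. Within cluster 5 the ratio of PGAM1 (0.694) was under that of PGAM2 (0.719), so the mutase share did not keep its direction there. Beyond the intervals of the reported differences lay 5.81 points for PFKM, -4.09 for ENO3 and -6.85 for PYGM per kilobase of gene span, and 2.53 for HK1 in thinned nuclei. The LDHB share moved from -13.9 to -17.7 points in thinned nuclei, inside the interval of the reported difference, and had no value per kilobase, as LDHB has 2 annotated entries. No paired analysis was possible because each genotype has 1 library.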
